A study of Ovis aries with 3 samples.

Results

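ASS1 encodes argininosuccinate synthase and was followed here through the 14 exons of a single transcript, XM_004005582.2. The samples are what the study names mucosal epithelial tissue of the sheep duodenum, cecum and proximal colon. The exons of ASS1 were found by the transcript identifier, which the study pairs with that symbol, and the gene was taken up with earlier results of these data known. It is 1 gene among 28601 gene loci, which were formed from the 83089 transcripts in the files by joining transcripts with an identical exon. The tissue came from 3 healthy small-tailed Han ewes, 11 months old and kept under the same conditions with free access to food and water. It was taken from the middle of the duodenum, the cecum and the proximal colon, and RNA of the 3 animals was pooled into 1 library per region. With 1 library per region there is no replicate check, and each interval below covers the counting of reads only and not the variation between animals. The labels name no treatment. Estimated reads summed over distinct exons lay between 64368455 (cecum) and 74984599 (colon), which is 1.35 to 1.39 times the read totals in the file headers.

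Argininosuccinate synthase is a cytosolic enzyme that joins citrulline and aspartate to argininosuccinate at the cost of ATP. Argininosuccinate lyase then splits the product into arginine and fumarate. The pair works in the urea cycle of the liver, in arginine synthesis of the kidney, and in cells that recycle citrulline to arginine for nitric oxide synthesis. In the small intestine, mitochondrial ornithine transcarbamylase makes citrulline, and much of it leaves the gut with the blood.

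ASS1 was lowest in the duodenum, intermediate in the cecum and highest in the colon. Estimated reads on its 14 exons summed to 2752 (duodenum), 9689 (cecum) and 35399 (colon). In RPKM, which divides the reads by 1503 bp, the summed exon length, and by the total number of reads that the file header gives, the levels were 36.0 (duodenum), 139 (cecum) and 438 (colon). The 95% Poisson intervals of these RPKM levels were 34.7 to 37.4, 136 to 142 and 433 to 442, and none of the 3 overlapped another. A read across several exons counts in each. These intervals, and those of every ratio summed over exons below, are therefore narrower than the information in the reads allows. Of the RPKM summed over the 3 regions, 71.4% lay in the colon, 22.7% in the cecum and 5.88% in the duodenum. In a bulk library, fewer cells with the transcript and less of it per cell cannot be told apart.

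Among loci with an RPKM of at least 1 in the same library, ASS1 stood at rank 2208 of 15074 (duodenum), 583 of 15346 (cecum) and 168 of 15207 (colon). The share of these loci with a lower RPKM was 85.4%, 96.2% and 98.9%. The RPKM of ASS1 is that of 1 transcript, while other loci were divided by the length of all their distinct exons. The ranks are therefore approximate. The median RPKM of the loci was nearly alike, at 7.85, 7.88 and 7.60.

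The RPKM of ASS1 was 12.2-fold higher in the colon than in the duodenum, a log2 ratio of 3.60 (95% Clopper-Pearson interval 3.55 to 3.66). A fold of at least 2 was used as the limit for a difference, and 9.5% of the 16373 loci with an RPKM of at least 1 in a region were past it on the colon side. Counted in both directions, 17.1% of the loci were past it. A larger log2 ratio of colon over duodenum was found at 221 loci, or 1.35% of those compared.

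Between cecum and duodenum the RPKM ratio was 3.86, a log2 ratio of 1.95 (1.89 to 2.01). On the cecum side 11.6% of the loci were past the limit, and 18.6% were in either direction. Here 579 loci, or 3.54%, had a larger ratio than ASS1. Between colon and cecum the RPKM ratio was 3.14, a log2 ratio of 1.65 (1.62 to 1.69). Only 3.59% of the loci were past the limit on the colon side of this comparison, and 7.08% in either direction. The median log2 ratio over all loci compared was -0.02 for colon over duodenum, 0.045 for cecum over duodenum and -0.09 for colon over cecum, so the differences of ASS1 were far from the middle of each distribution. The comparisons share libraries and are not independent of each other.

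ASS1 was one of 104 loci, 0.635% of those compared, with a fold of at least 2 at both steps from duodenum to cecum and from cecum to colon. The study's qRT-PCR of this transcript gave the same order of regions. In it the cecum was less than 2-fold above the duodenum, and the larger step was that from cecum to colon. A step upward of any size at both places was seen at 2604 loci, or 15.9%. Of the 104 loci, 12 had an RPKM of at least 100 in the colon. By colon RPKM, the loci above ASS1 in this group included SPINK4, a secreted protease inhibitor of goblet cells, with an RPKM of 844 (duodenum), 4905 (cecum) and 21237 (colon). The group also held PCK1, the cytosolic enzyme that makes phosphoenolpyruvate from oxaloacetate. These genes were looked up after their values were seen.

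**Figure D1:**
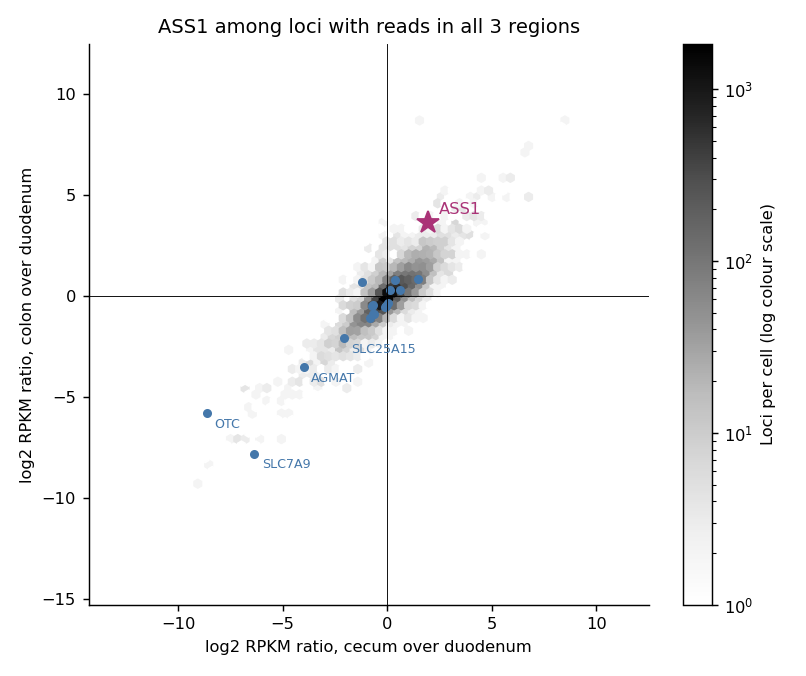
The log2 RPKM ratio of cecum over duodenum (x axis) against that of colon over duodenum (y axis), with the grey cells shaded by the number of loci that had reads in all 3 regions and an RPKM of at least 1 in one. The star is ASS1, at 1.95 and 3.60, and the blue points are genes of the arginine lists, of which OTC, SLC7A9, AGMAT and SLC25A15 lie in the lower left. NOS2, which had no listed reads in the duodenum and was higher in the colon, is not drawn.

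All 14 exons had reads in every region, and each of them gave the same order of duodenum, cecum and colon. Exon RPKM ranged from 11.7 to 93.7 (duodenum), from 51.2 to 287 (cecum) and from 143 to 960 (colon). The lowest value in each region belonged to exon 1, the longest with 304 bp, and the highest to exon 8, the shortest with 32 bp. Exon 1 had 181 reads (duodenum), 720 (cecum) and 2347 (colon). Exon 8 had 152, 426 and 1653 reads. Exon 2 (55 bp) had the fewest reads, 42.2 (duodenum), 212 (cecum) and 664 (colon). Exon 12 (190 bp) had the most, with 294, 1163 and 4059 reads. The lowest colon exon was still above the highest duodenum exon in RPKM, whereas the exon ranges of cecum and colon overlapped.

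**Figure D2:**
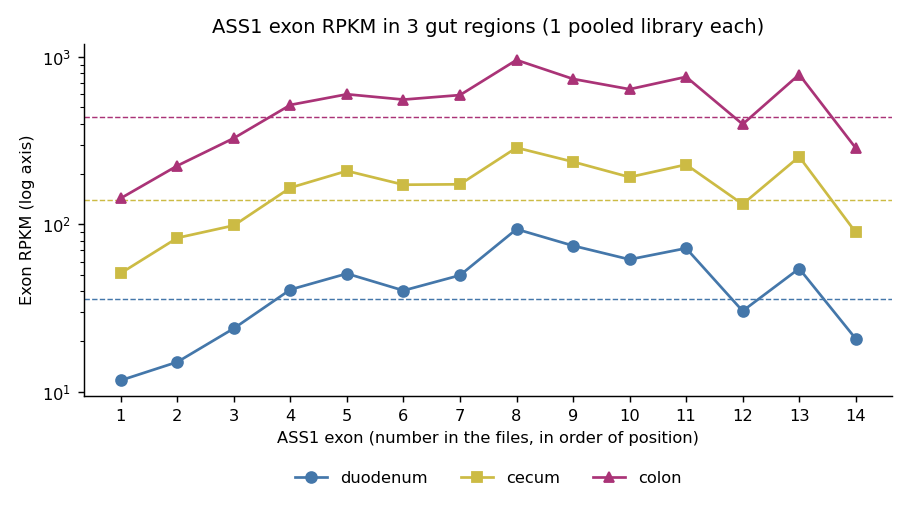
RPKM of each of the 14 ASS1 exons (x axis, exon number in order of position; y axis, log scale) in the duodenum (circles), cecum (squares) and colon (triangles), 1 pooled library each. Dashed lines mark the RPKM of the whole transcript, 36.0, 139 and 438, and the 3 profiles run nearly parallel with peaks at exon 8.

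The percent of an exon covered by reads, as the authors deposited it, was high in every region. It was at least 83.6% in the duodenum, with the lowest value in exon 1, at least 83.6% in the cecum, with the lowest value in exon 2, and at least 97.2% in the colon. Weighted by exon length, reads covered 95.8% (duodenum), 96.3% (cecum) and 99.7% (colon) of ASS1. Full coverage was listed for 8 exons (duodenum), 7 (cecum) and 12 (colon). In exon 1 the coverage was 83.6%, 87.8% and 99.3% in duodenum, cecum and colon, in the order of its reads.

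The files place the exons from position 6038518 to position 6082350 and name neither a chromosome nor a genome build. A second transcript, XM_012118289.1, lists 16 exon rows over the same stretch, with 1505 bp in all. Of these, 11 rows have the same start and end as exons 3 to 13 of XM_004005582.2 and carry the same reads. The reads of these 11 exons cannot be divided between the transcripts, so the levels given for ASS1 may include reads of the second one. Exons 1, 2 and 14 have no such row. Their log2 ratios of colon over duodenum were 3.61, 3.89 and 3.78. By position alone, without regard to chromosome, 7 of the 14 exons overlap an exon of a transcript outside this locus, and none shares both ends with one. Whether reads from near-identical copies of ASS1 elsewhere in the genome were counted was not tested.

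Exon RPKM differed more along the transcript than the ratios between regions did. The highest exon RPKM was 8.0 (duodenum), 5.62 (cecum) and 6.69 (colon) times the lowest. Across the 14 exons, Spearman's rho of RPKM and exon length was -0.61 in the duodenum and -0.64 in both the cecum and the colon, given as a description because neighbouring exons share reads. A read of 100 bp can touch an inner exon from 99 positions outside it. The first and the last exon end the transcript, so 99 bp is too much to add for them. With each exon lengthened by 99 bp, rho was -0.28, -0.05 and -0.08. Exons 3 to 13 then differed by at most 2.14-fold (duodenum), 1.74-fold (cecum) and 1.62-fold (colon), against 3.91, 2.91 and 2.93 in RPKM. On this scale the level of the whole transcript was 18.7 (duodenum), 72.4 (cecum) and 228 (colon) in the unit of RPKM, so the levels depend on how reads across junctions are counted. The ratios between regions are the same on both scales by construction.

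**Figure D3:**
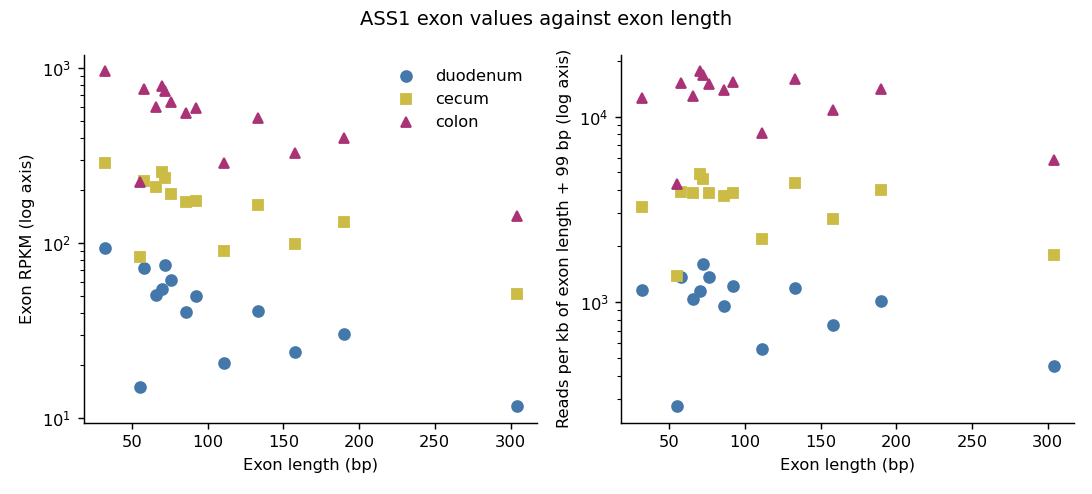
ASS1 exon values against exon length in bp (x axes) in the duodenum (circles), cecum (squares) and colon (triangles), as RPKM (left) and as reads per kb of exon length plus 99 bp (right), both y axes on a log scale. The left panel falls with length from exon 8 (32 bp, colon RPKM 960) to exon 1 (304 bp, colon RPKM 143). The right panel is flatter apart from exons 1, 2 and 14, which lie low. Exons 1 and 14 end the transcript, so adding 99 bp is too much for them and lowers their values.

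Exon by exon, the log2 ratio of colon over duodenum ranged from 3.31 in exon 9 to 3.89 in exon 2, with a median of 3.64. For cecum over duodenum it ranged from 1.62 in exon 8 to 2.46 in exon 2, with a median of 2.04. For colon over cecum the range was narrower, from 1.43 in exon 2 to 1.77 in exon 7, with a median of 1.66. The standard deviation over the 14 exons was 0.195, 0.257 and 0.105 for these comparisons in the same order. Every exon was past a fold of 2 in each of the 3 comparisons, and every exon was past a fold of 8 between colon and duodenum.

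Exons 8 to 11 stood together below the others in both comparisons with the duodenum, a grouping made after the values were seen. Their log2 ratios of colon over duodenum were 3.36, 3.31, 3.38 and 3.40, and the next lowest was 3.56 in exon 5. Summed, these 4 exons gave a log2 ratio of colon over duodenum of 3.36 (3.26 to 3.46), against 3.70 (3.64 to 3.77) for the other 10. For cecum over duodenum the values were 1.65 (1.54 to 1.76) and 2.07 (1.999 to 2.15). Between colon and cecum the order was the other way round and the gap was smaller, with 1.71 (1.65 to 1.78) for exons 8 to 11 and 1.63 (1.59 to 1.67) for the rest. Of the ASS1 reads of the duodenum, the same 4 exons held 31.9% (95% Wilson interval 30.2% to 33.6%). In the large intestine their share was 25.8% (cecum, 25% to 26.7%) and 26.9% (colon, 26.4% to 27.4%). A read across several exons counts in each, so these intervals are narrower than the information in the reads allows. The 4 exons are each shorter than a read and were grouped for their low ratios. A gap from the other 10 in the comparisons with the duodenum therefore followed from the choice, and the intervals do not test it.

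**Figure D4:**
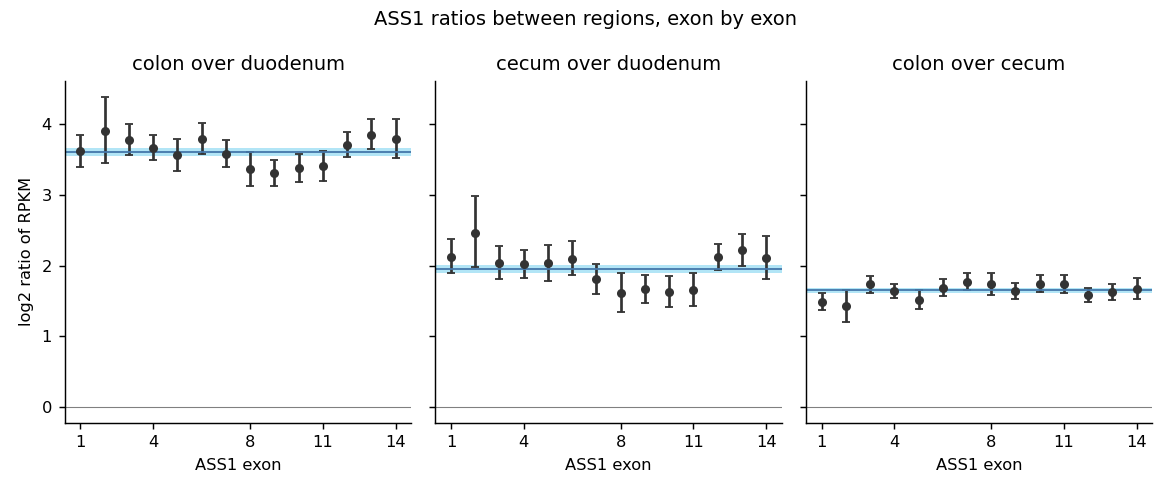
Log2 RPKM ratio of each ASS1 exon (points, x axis exon number) with its 95% Clopper-Pearson interval from read counts (bars) for colon over duodenum, cecum over duodenum and colon over cecum. The blue line and band are the whole transcript with its interval, at 3.60, 1.95 and 1.65, and exons 8 to 11 lie under the line in both comparisons with the duodenum.

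The other genes around arginine were taken from 5 lists: arginine synthesis, citrulline and glutamate supply, aspartate supply, arginine use, and transport. Of their 46 symbols besides ASS1, 21 could be paired with a transcript of the files, and 19 of these had an RPKM of at least 1 in a region. ASL, ARG1, CPS1 and NAGS could not be paired and were not analysed here. Symbols came in part from the study's list of transcripts that differed between regions, which could favour genes past the limit below. Between colon and duodenum 1 of the 19 was past the 2-fold limit on the colon side and 5 on the duodenum side, beside 9.5% and 7.62% of all loci. Between cecum and duodenum 2 were past the limit on the cecum side and 5 on the duodenum side, beside 11.6% and 7.03%. Between colon and cecum 3 were higher in the colon and 1 in the cecum, beside 3.59% and 3.5%. The median log2 ratio of the 19 genes was -0.496 for colon over duodenum, -0.645 for cecum over duodenum and -0.225 for colon over cecum. All 3 medians were below 0, beside -0.02, 0.045 and -0.09 over all loci compared.

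Of the other genes on the list of arginine synthesis, OTC and ARG2 could be followed. OTC, the ornithine transcarbamylase that makes citrulline, had 9837 reads (duodenum), 23.2 (cecum) and 187 (colon). Its RPKM was 54.9, 0.142 and 0.987, which is a colon over duodenum log2 ratio of -5.80 (-6.02 to -5.59). OTC was thus above ASS1 in RPKM in the duodenum and far under it in the large intestine. Between colon and cecum its log2 ratio was 2.80 (2.18 to 3.50), the same direction as ASS1, from low levels. ARG2, the mitochondrial arginase, was at an RPKM of 1.52, 1.98 and 2.63 in duodenum, cecum and colon. The log2 ratio, colon against duodenum, was 0.79 (0.475 to 1.12), on the same side as ASS1 and within the 2-fold limit.

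SLC25A15, which exchanges ornithine and citrulline across the inner mitochondrial membrane, had an RPKM of 52.8 (duodenum), 12.8 (cecum) and 12.3 (colon). GLUD1, the mitochondrial glutamate dehydrogenase, had 66.6, 38.3 and 31.7. Both were highest in the duodenum, with log2 ratios of colon over duodenum of -2.10 (-2.23 to -1.97) and -1.07 (-1.12 to -1.03). GLS2, a glutaminase, did not reach an RPKM of 1 in any region.

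Aspartate is the other substrate of ASS1. On the list of aspartate supply, which also holds ASNS, an enzyme that uses aspartate, 6 genes reached an RPKM of at least 1 in a region. Between colon and duodenum 0 of the 6 passed the 2-fold limit, which 17.1% of all loci did, and between cecum and duodenum 2 did (1 in each direction), beside 18.6% of all loci. GOT1, the cytosolic aspartate aminotransferase, had an RPKM of 33.5 (duodenum), 31.6 (cecum) and 23.1 (colon). GOT2, its mitochondrial counterpart, had 53.2, 54.2 and 41.6. The mitochondrial aspartate and glutamate carriers SLC25A13 and SLC25A12 differed from each other. SLC25A13 was highest in the duodenum (5.46, 3.49 and 2.98) and SLC25A12 in the cecum (1.58, 4.34 and 2.79). SLC1A1, a plasma membrane transporter of glutamate and aspartate, was lowest in the cecum, with an RPKM of 3.802, 1.65 and 6.13. ASNS, which turns aspartate into asparagine, had 6.41, 3.93 and 4.49.

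The list of arginine use covers nitric oxide, polyamines and creatine, and not each of its genes acts on arginine itself. On it NOS2, the inducible nitric oxide synthase, had the same order of regions as ASS1. It was absent from the duodenum file, and had 567 cecum reads (RPKM 1.85) and 2779 colon reads (RPKM 7.81). Its log2 ratio of colon over cecum was 2.08 (1.95 to 2.21), beside 1.65 for ASS1. NOS2 is the gene counted above as higher in the colon than in the duodenum. No fold is given because none of its exons was listed in the duodenum, where exons under 1 read are left out. AGMAT, the agmatinase, which forms putrescine, was highest in the duodenum, with an RPKM of 29.1, 1.83 and 2.51. GATM, which starts creatine synthesis from arginine, had 30.2, 18.9 and 16.2. SAT1, which acetylates spermidine and spermine, had an RPKM of 300 (duodenum), 333 (cecum) and 370 (colon). AZIN1, an antizyme inhibitor, had 50.2, 31.4 and 36.5, and AMD1, the S-adenosylmethionine decarboxylase of polyamine synthesis, had 8.85, 8.52 and 6.34.

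Of the transporters, SLC7A9, a subunit of the brush border carrier for cystine and basic amino acids, had an RPKM of 29.2 (duodenum), 0.360 (cecum) and 0.129 (colon). SLC7A7, a subunit of the basolateral carrier for basic amino acids, had 13.5, 12.9 and 9.55. SLC7A2, another carrier of basic amino acids, had 1.20, 1.81 and 1.46. In all, 3 of the 19 genes (ARG2, NOS2 and SAT1) had the order duodenum, cecum, colon from low to high, and 8 had the reverse order. Over all loci compared, the shares with these orders were 15.9% and 23.6%.

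**Figure D5:**
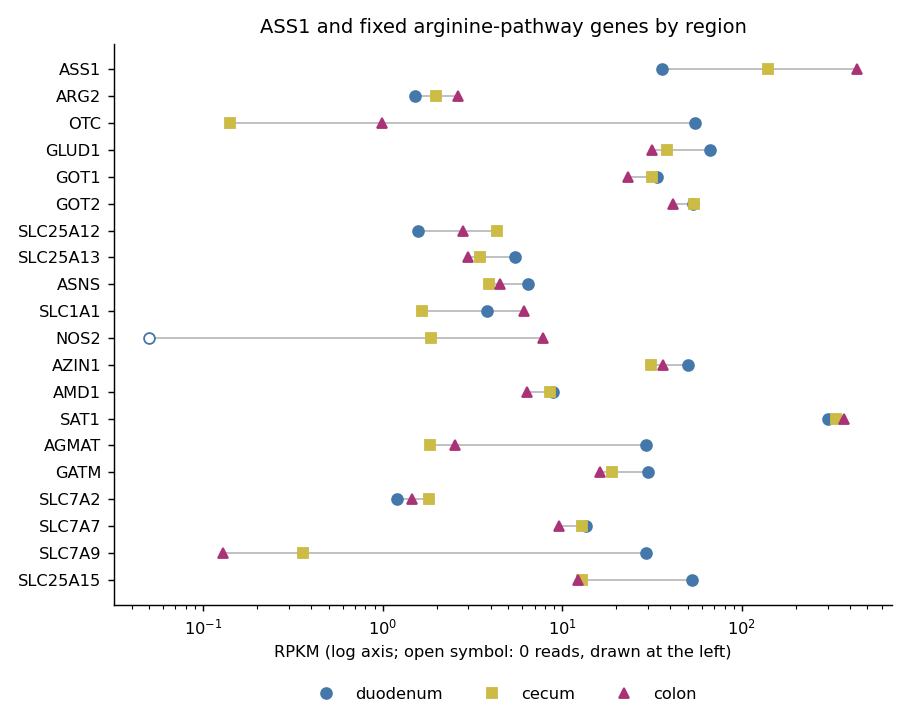
RPKM (x axis, log scale) of ASS1 and the 19 genes of the arginine lists with an RPKM of at least 1 in a region, 1 gene per row, in the duodenum (circles), cecum (squares) and colon (triangles). ASS1 and NOS2 have the colon symbol far to the right, while OTC, AGMAT, SLC7A9 and SLC25A15 have the duodenum symbol there. The open circle of NOS2 marks no listed reads, taken as 0.

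The loci whose pair of log2 ratios against the duodenum lay nearest to that of ASS1 were sought among 7307 loci that had at least 50 reads in each region and reached an RPKM of 10 in one. Likeness was the distance between the pairs of log2 ratios, over 3 libraries, and only 3 loci lay within 0.5. The nearest, at 0.114, was RGS16, a regulator of G protein signalling, with an RPKM of 1.99 (duodenum), 7.88 (cecum) and 22.4 (colon). Next came the unnamed loci of XM_012172485.1 (distance 0.206), XM_012100354.1 (0.365) and XM_004001773.2 (0.546). The fifth was PCK1 (0.565), with an RPKM of 13.8, 66.2 and 231. ASS1 thus had a higher level in each region than any of these 5 loci.

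The tissue labels were checked against markers, as far as these could be paired with a transcript. The epithelial genes EPCAM, KRT8 and KRT20 (3 of 7 on the list) summed to an RPKM of 1722 (duodenum), 2447 (cecum) and 1930 (colon), and TFF3, of goblet cells (1 of 5), had 2981, 3188 and 3343. APOA4 and FABP2, of small intestinal enterocytes (2 of 5), summed to 1374 in the duodenum and to under 1 in both other regions (0.529 and 0.588). HOXB13, HOXA10 and AQP8, genes of the large intestine (3 of 5), summed to 2.68, 13.5 and 32.5. HOXB13 and HOXA10 were not listed in the duodenum and were taken as 0 there. HOXB13 was also near 0 in the cecum (RPKM 0.0562, 5.61 reads) and had an RPKM of 7.86 in the colon, so it does not mark the cecum. HOXA10, with an RPKM of 5.41 (cecum) and 8.47 (colon), was read from a noncoding transcript of that symbol. Smooth muscle genes (ACTA2, DES, ACTG2 and CNN1, 4 of 5) summed to 706 (duodenum), 3582 (cecum) and 2543 (colon). Their sum was below that of the epithelial genes in the duodenum and above it in the cecum and the colon, although the study names the tissue mucosal epithelial. PECAM1 and KDR, of endothelium (2 of 4), summed to 28.7, 67.0 and 39.1, CD68 and CD14, of macrophages (2 of 4), to 32.0, 58.7 and 39.7, and COL1A2, DCN and PDGFRA, of fibroblasts (3 of 4), to 197, 564 and 287. These 4 sums were lowest in the duodenum, as ASS1 was, and higher in the cecum than in the colon, unlike ASS1. Their log2 ratios of colon over duodenum ran from 0.308 (macrophages) to 1.85 (smooth muscle), and those of cecum over duodenum from 0.874 to 2.34 for the same lists. Of B-lineage genes, JCHAIN had an RPKM of 6626 (duodenum), 3659 (cecum) and 663 (colon), MZB1 had 122, 94.2 and 31.5, and CD79A had 24.9, 16.6 and 27.5. Sums for T cells (CD3E, CD3D and CD2, 3 of 4) were 213, 137 and 119, and for enteroendocrine cells (CHGA and NEUROD1, 2 of 3) 498, 128 and 143. The part of these cell types in the ASS1 levels was not tested.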

How the data were processed

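Reads of 100 bp from 1 pooled library of 3 ewes per region were filtered, mapped with Bowtie2 and counted with RSEM on the sheep reference genome according to the study's methods. The submitters' processing notes name BWA and Bowtie 0.12.2 instead. For each exon the authors deposited expected counts, that is estimated reads that are mostly not whole numbers, its RPKM, made by the authors from the read total in the file header, and the percent of its length covered. Exons under 1 read are absent from the files. The header totals were 50832279 (duodenum), 46311533 (cecum) and 53827214 (colon). A floor of 3 reads, chosen here for counting error only, is an ASS1 RPKM of 0.0393 (duodenum), 0.0431 (cecum) and 0.0371 (colon). Exons were listed down to 1 read, so lower values were possible.

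Exon reads were summed per transcript for ASS1 and per locus otherwise. Values of 0 were replaced by 0.001 in ratios. Fixed rules named the genes: the arginine lists, paired by accession with symbols of the RefSeq table of assembly ARS-UI_Ramb_v3.0 or the supplement (8805 of 83089 transcripts matched), and the 5 nearest loci. The supplement lists transcripts that the study called different between regions, partly on these libraries. How many genes were paired only through it was not counted. The members and lists were chosen with earlier results of these data known. The study's Audic-Claverie test, which compares 2 libraries and not the regions, was run as an alternative and tested on simulated data. Python 3.11.15, numpy 2.4.6, pandas 2.3.3, scipy 1.17.1, matplotlib 3.10.9, R 4.3.3 and edgeR 4.0.16 (scaling factors only) were used. One gene of the marker lists is not reported here.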

Additional observations from a re-analysis of the deposited data

How the results depend on the processing

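With 1 library per region no animal or library could be left out. No paired analysis was possible because each region has a single library without a replicate number. Leaving out each exon in turn gave ASS1 log2 ratios of colon over duodenum between 3.582 and 3.631, of cecum over duodenum between 1.927 and 1.978, and of colon over cecum between 1.642 and 1.665. The direction was the same under each alternative run. Some values fell outside the counting interval, which is itself too narrow because a read across several exons counts in each. With the median exon, cecum over duodenum was 2.04. For exons without a positional overlap, colon over duodenum was 3.54 and colon over cecum 1.62. Colon over cecum was 1.74 with median-ratio factors (1.735), 1.70 with edgeR's TMM factors and 1.73 with exon reads less the 10 loci with the most reads (1.734), because these factors differ between the libraries. Lengthening the exons by 99 bp was added after the data were seen.

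For colon over duodenum, cecum over duodenum and colon over cecum, 2802, 3049 and 1160 loci were past 2-fold. With a fold of 4 there were 1097, 1059 and 381. An RPKM of at least 10 left 1092, 1143 and 353, and fewer loci were compared. With no filter on low values 9305, 9448 and 6932 passed, and with a pseudocount of 1 there were 1818, 1895 and 533. Adding the Audic-Claverie limit (false discovery rate below 0.001) gave 2695, 2918 and 977. Of the 4 arginine genes past 2-fold between colon and cecum, 2 were with a pseudocount of 1 and 2 with a fold of 4. The duodenum had the fewest ASS1 reads (2752), and the counting intervals against it are wider than that of colon over cecum. Variation between animals was not measured.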

Other observations

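Genes that lie near ASS1 on its chromosome in the RefSeq table were looked up after the data were seen. Of the 10 protein-coding genes on each side, 5 could be paired with a transcript of the files, and these had nearly flat values or were hardly detected. The closest of the 5 lay at place 3 before ASS1 (EXOSC2) and place 4 after it (GPR107), so the genes directly beside ASS1 were not seen. EXOSC2, a subunit of the RNA exosome, had an RPKM of 10.6 (duodenum), 11.3 (cecum) and 9.45 (colon). GPR107 had 10.9, 12.9 and 13.6. TOR1A, an ATPase of the endoplasmic reticulum, had 16.5, 12.9 and 12.7, and NUP214, a nuclear pore protein, had 9.30, 9.64 and 9.88. The log2 ratios of colon over duodenum of these 4 genes ran from -0.378 (TOR1A) to 0.324 (GPR107), beside 3.60 for ASS1. LOC105607240 had an RPKM under 0.04 in each region. These are values of 1 library per region, and gene order was taken from another assembly than the one behind the files.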
